A study of Mus musculus with 30 samples.

Results

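The response of mouse macrophages to a β2 adrenergic agonist was compared with that to its vehicle after 1 h of lipopolysaccharide (LPS), the bacterial cell wall component that Toll-like receptor 4 senses. The comparison rests on 7 of the 30 libraries of the study, chosen by their labels. The 3 libraries labelled M2, M3 and M4 came from cultures given metaproterenol hemisulfate (MPH), and the 4 labelled D3, D4, D5 and D6 came from cultures given the solvent DMSO. MPH was given at 1 µM, and both agents were given for 2 h before LPS. LPS is labelled as 100 ng/µL. All 7 libraries came from bone marrow-derived macrophages of WT C57Bl/6 mice, grown from marrow in medium with M-CSF, and were made from total RNA. The labels name cultures and do not say which came from separate animals, so p-values measure the spread between these libraries, which may be technical. Libraries of the same 7 cultures at 0 h (MPH or DMSO without LPS) and at 2 h of LPS entered the statistical fit to estimate that spread. The p-values thus rest on the spread at all these times. The main fit took all libraries as independent, although those at different times share a culture.

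The β2 receptor couples to the stimulatory G protein and adenylyl cyclase, which makes cyclic AMP. Cyclic AMP activates protein kinase A, which phosphorylates the transcription factor CREB at cyclic AMP response elements (CREs), and phosphodiesterases end the signal. In macrophages, cyclic AMP is known to restrain some LPS-induced cytokines, such as TNF and IL-12, and to raise others, such as IL-10.

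Levels are RPKM, mapped reads scaled by transcript length and library depth. Differences are on the log2(RPKM + 0.5) scale, on which 1 is a doubling of well-expressed genes and the change of genes near or below 0.5 RPKM is understated. Approximate depth ran from 5400000 reads in D6 to 71600000 in D3, so that 1 read in a 2 kb transcript is worth about 0.007 RPKM in D3 and 0.093 RPKM in D6. The cell type label was checked against its markers. The summed level of 13 macrophage markers was 3960 to 7130 RPKM in the DMSO libraries, 4460 and 7050 RPKM at the ends of the M2 and M3 range, and 4460 RPKM in M4, and 12 of the 13 reached 1 RPKM. Lyz2 led them with a mean of 4130 RPKM over the 7 libraries, so it weighed heavily in this sum. The sum of 12 neutrophil markers was 22.3 to 94.9 RPKM in DMSO, 64.2 to 90 RPKM in M2 and M3 and 62.7 RPKM in M4. Markers of B, T and NK, dendritic and stromal cells summed to at most 2.06 RPKM in every library. The 8 erythroid and mast cell markers, led by Kit, summed to 1.20 to 3.63 RPKM in DMSO, 0.495 to 0.572 RPKM in M2 and M3 and 1.97 RPKM in M4. The part of these cells in the results was not tested. In RNA from whole cultures, fewer cells of a type and less RNA per cell cannot be told apart.

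The library labelled M4 stood apart from the other MPH libraries at 1 h. Only 28 genes differed 2-fold or more between it and the DMSO library D5, whereas 1388 differed between it and M2 and 1070 between it and M3. Across genes, its levels correlated with those of D5 at r = 0.9944, a description over genes, which are not independent replicates. The approximate counts of M4 and D5 differed by a mean chi-square of 19.4 per gene over 8870 genes, where counting error alone gives about 1. This was the lowest value of all 21 pairs of libraries, the next being 22.9 for D5 with D6 and the highest 298.1. The value grows with depth, so pairs with a shallow library score low and the pairs are not compared on like terms. D6 had about 5400000 reads, D5 47700000 and M4 44000000, and D5 and D6 differed 2-fold or more in 337 genes. The culture labelled M4 differed from D5 in 206 genes at 0 h and in 210 at 2 h. M2 lay closest to D3 (216 genes) and M3 closest to D4 (293 genes), while M2 and M3 differed from each other in 915. The pairs M2 with D3 and M3 with D4 used below come from this likeness, known from earlier results of these data, and not from the labels. Every result is therefore given per library, and with and without the library labelled M4, which is written as M4 beside the other names below.

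**Figure D1:**
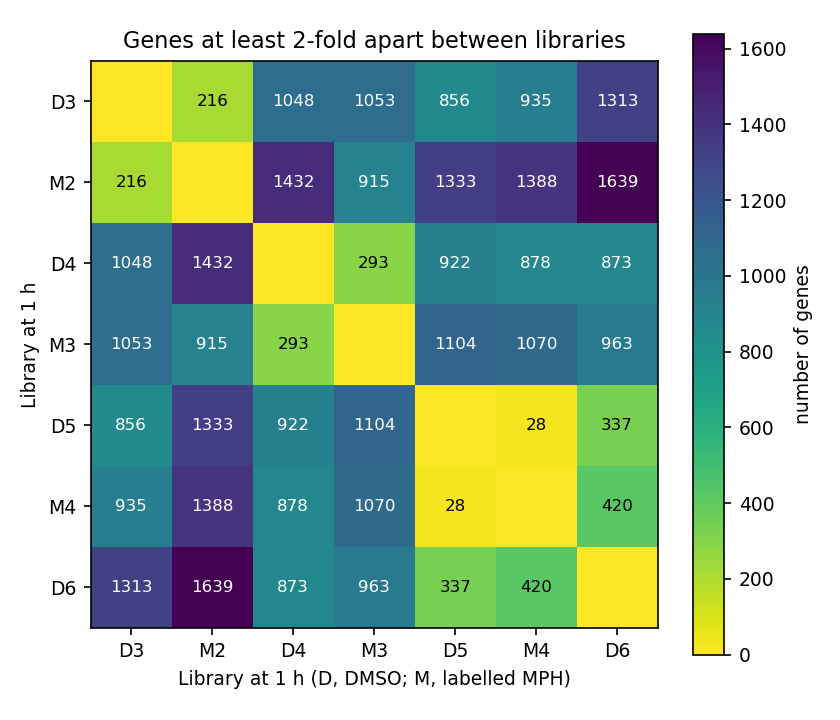
Number of genes at least 2-fold apart between each 2 of the 7 libraries at 1 h of LPS (D, DMSO; M, labelled MPH), on the log2(RPKM + 0.5) scale. The lowest values are 28 for M4 with D5, 216 for M2 with D3, 293 for M3 with D4 and 337 for D5 with D6.

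With all 7 libraries as labelled, no gene passed the test. Of 10239 genes tested with limma, 0 (0%) had an adjusted p under 0.05 and 327 had an unadjusted p under 0.05. Without the library labelled M4, 137 of 10231 genes (1.34%) passed: 90 (0.88%) rose with MPH and 47 (0.459%) fell. That count was 24 without M2, 52 without M3, 81 without D5 and 62 without the shallow libraries D4 and D6. When the 1 h libraries alone were fitted it was 13, all higher. With culture as a random effect, which allows for libraries that share a culture, it was 94. Of the named genes that stayed in the test of the 1 h libraries alone, 43 lost their call, Thbs1, Il10 and Atf3 among them. Others, such as Nr4a2, Il1r2 and Fosb, reached 1 RPKM only in M2 and M3, left that test and had no call. At the 90 genes that rose, the median difference was 1.47 for M2 minus D3, 1.65 for M3 minus D4 and 0.05 for M4 minus D5. At the 47 that fell these medians were -1.01, -1.04 and 0.04. The level in the library labelled M4 lay within the DMSO range for 61 of the 90 and 27 of the 47. The groups did not overlap in 152 genes (1.48%) with all 7 libraries. Without the library labelled M4, 781 genes (7.63%) were above and 707 (6.91%) below every DMSO library.

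A second description used the pairs alone, without a test. Both differences were at least 1 in 104 genes (1.02%) and at most -1 in 41 genes (0.401%). Of the 104 genes, 61 had passed the test without M4 and 43 had not, and of the 41 genes, 16 had and 25 had not. In M4 minus D5, 0 of the 104 reached 1 and 0 of the 41 reached -1. Only 9 of the 62 genes named here that passed did so again with each of the 6 libraries left out in turn: Thbs1, Il10, Crem, Nr4a2, Il1r2, Odc1, Mxi1, Dgat1 and S1pr2.

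**Figure D2:**
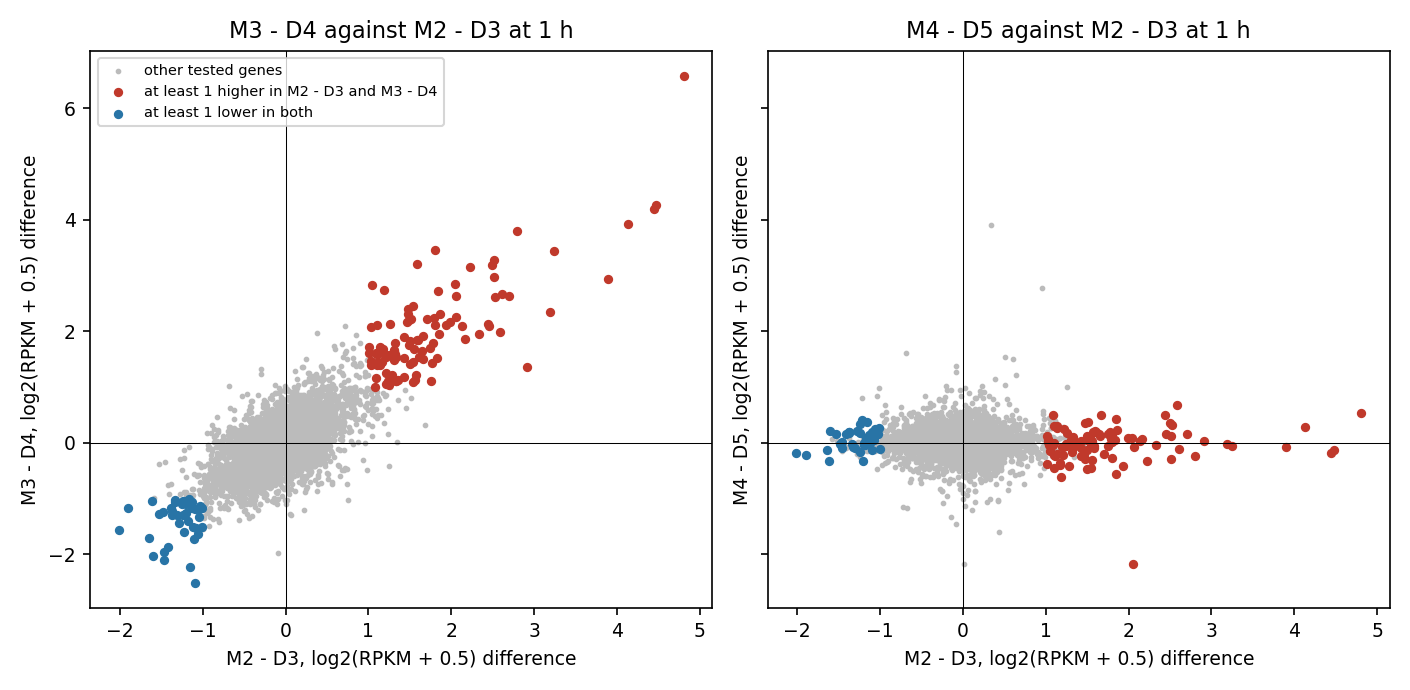
Paired differences at 1 h of LPS for all tested genes, on the log2(RPKM + 0.5) scale, with M2 minus D3 on the horizontal axis and M3 minus D4 (left) or M4 minus D5 (right) on the vertical axis. The 104 genes at 1 or more in both pairs (red) and the 41 at -1 or less (blue) were chosen on the left panel's values; on the right panel none of them reaches 1 or -1 in its own direction.

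Known targets of cyclic AMP and CREB were counted first. Of 17 tested members of a list of such targets, 5 rose and 0 fell without the library labelled M4, beside 0.88% and 0.459% of all genes, and 8 of the 17 were at 1 or more in both pairs, beside 1.02%. Their median difference was 1.02, beside 0.01 for all genes. It was 0.68 with all 7 libraries and -0.01 for M4 minus D5. Of these targets, Nr4a2, Fosb and Pde4d stayed under 1 RPKM in every DMSO library of the fit. They entered the test only through MPH libraries, so their rises are no support for these counts.

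Crem encodes a modulator of CREs whose short form ICER feeds back on CREB. Its level was 1.01, 2.02, 1.07 and 3.45 RPKM in D3 to D6, 33.0 RPKM in M2 and 47.9 RPKM in M3, and 0.946 RPKM in M4. M2 and M3 lay far above all DMSO libraries and M4 lay below them. The difference was 4.19 (SE 0.43, limma adjusted p = 0.000102) without M4 and 2.59 (limma adjusted p = 1.0) with it, and 4.47 and 4.27 in the pairs.

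Nr4a2, an orphan nuclear receptor and immediate early gene, stood at 0.272, 0.17, 0.146 and 0.43 RPKM in D3 to D6. M2 had 11.0 RPKM, M3 had 4.64 RPKM and M4 had 0.113 RPKM. The rise was 3.36 (SE 0.36, limma adjusted p = 0.000102) without M4. Its relative Nr4a1 had 8.24, 1.58, 4.89 and 9.01 RPKM in DMSO against 48.7, 18.5 and 6.40 RPKM in M2, M3 and M4, with paired differences of 2.49 and 3.19 and an adjusted p of 0.0937 (limma, without M4). Nr4a3 had paired differences of 1.75 and 1.12, but its M3 level (0.946 RPKM) lay below D6 (1.44 RPKM).

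Fosb, an AP-1 subunit, stood at 0.085 to 0.883 RPKM in DMSO, 8.48 RPKM in M2, 3.15 RPKM in M3 and 0.481 RPKM in M4. It rose by 2.66 (SE 0.47, limma adjusted p = 0.00614) without M4, a call that ended without M2 (2.01, adjusted p = 0.262). Areg, the growth factor amphiregulin, had 0.847 to 10.1 RPKM in DMSO, 24.3 RPKM in M2, 11.5 RPKM in M3 and 3.08 RPKM in M4 and did not pass (adjusted p = 0.324). Fos (1.53), Pde4b (0.81), Sik1 (0.61) and Rgs2 (0.59) did not pass either, and their M2 and M3 levels were above every DMSO library, as in 11 of the 17 targets, beside 7.63% of all genes. In Dusp1 (0.79), Per1 (0.21), Id3 (-0.28), Gem (-0.41) and Cited2 (-0.63) the groups overlapped and the test was not passed.

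The 150 bases before the start of 6 genes are shown as examples chosen because each window holds the core of a CRE. The core, TGACG, or CGTCA when it lies on the other strand, is in capitals. Sequences are from RefSeq, build GRCm38.p6, and are written 5′ to 3′ on the gene's own strand.
Nr4a2, chr2:57124004-57124153, minus strand: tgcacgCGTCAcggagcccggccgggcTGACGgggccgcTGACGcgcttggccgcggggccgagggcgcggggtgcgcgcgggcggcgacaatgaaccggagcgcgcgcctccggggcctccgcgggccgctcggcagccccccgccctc
Nr4a1, chr15:101266696-101266845, plus strand: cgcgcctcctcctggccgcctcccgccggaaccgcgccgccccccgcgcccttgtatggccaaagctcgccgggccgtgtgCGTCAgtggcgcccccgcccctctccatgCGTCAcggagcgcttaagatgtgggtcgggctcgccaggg
Fosb, chr7:19310046-19310195, minus strand: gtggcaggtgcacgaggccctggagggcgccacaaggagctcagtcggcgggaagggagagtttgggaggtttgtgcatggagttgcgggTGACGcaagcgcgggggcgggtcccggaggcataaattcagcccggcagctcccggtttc
Odc1, chr12:17544723-17544872, plus strand: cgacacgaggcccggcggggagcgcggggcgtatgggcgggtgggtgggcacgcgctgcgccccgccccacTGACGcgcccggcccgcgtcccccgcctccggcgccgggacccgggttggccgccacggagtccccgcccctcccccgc
Il6, chr5:30012964-30013113, plus strand: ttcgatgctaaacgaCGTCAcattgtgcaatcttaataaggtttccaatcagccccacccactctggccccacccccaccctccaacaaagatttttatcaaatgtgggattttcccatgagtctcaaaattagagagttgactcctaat
Atf3, chr1:191183334-191183483, minus strand: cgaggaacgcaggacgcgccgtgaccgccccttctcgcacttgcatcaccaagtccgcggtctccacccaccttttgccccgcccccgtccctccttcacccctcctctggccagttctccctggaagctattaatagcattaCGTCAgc
Nr4a2 holds 3 cores in this window, Nr4a1 holds 2, and Fosb, Odc1, Il6 and Atf3 hold 1 each. The first 5 had positive paired differences and Atf3 negative ones. The same windows of Il1b and Mxi1 held 0 cores and are not printed.

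Promoter windows of 250 bases before the start were found by symbol for 74 of the 90 genes that rose and 41 of the 47 that fell. Both strands were searched. The core occurred in 32 of the 74 (43.2%), in 14 of the 41 (34.1%), in 32.2% of all tested genes with a window, and in 19.8% of all genes with a window. The full palindromic element, which is the core followed by TCA and so contains the core on both strands, occurred in 0 of the 74, in 2 of the 41 and in 3.14% of tested genes. The AP-1 motif TGANTCA occurred in 16.2% of the genes that rose, 2.44% of those that fell and 5.42% of tested genes. The κB motif occurred in 20.3%, 12.2% and 10.5%. A match is a description of letters and not of a bound site. Windows for Crem, Thbs1, Il10 and Dgat1 were not used here.

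The genes that make and carry the cyclic AMP signal were counted next. Of 19 tested genes for receptors, G protein, cyclases, kinases and CREB coactivators, 0 rose and 0 fell without M4, a count near the 0.88% and 0.459% of all genes, and their median difference was -0.02. Adrb1 and Adrb3, which encode β adrenergic receptors, stood at no more than 0.0679 RPKM in any of the 7 libraries and were below the filter. Adora2b, an adenosine receptor that also raises cyclic AMP, had 3.77 to 9.18 RPKM in DMSO, 14.9 RPKM in M2, 23.5 RPKM in M3 and 3.95 RPKM in M4, without passing (adjusted p = 0.0805, limma, without M4).

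Of 9 tested phosphodiesterases, which degrade cyclic AMP, 3 rose and 0 fell without M4, beside 0.88% and 0.459% of all genes. Pde3b had 2.36, 0.935, 0.413 and 0.985 RPKM in D3 to D6, 9.42 RPKM in M2, 6.30 RPKM in M3 and 0.511 RPKM in M4, a rise of 2.42 (SE 0.51, limma adjusted p = 0.0212). Pde4d had 0.199 to 0.374 RPKM in DMSO, 2.49 RPKM in M2, 1.59 RPKM in M3 and 0.296 RPKM in M4, a rise of 1.65 (SE 0.26, limma adjusted p = 0.00353). It entered the test only through MPH libraries, so it is no support for the count of phosphodiesterases. Pde8a rose by 0.71 (limma adjusted p = 0.0376). The most abundant member, Pde4b, had 32.4 to 48.1 RPKM in DMSO, 73.9 RPKM in M2, 70.8 RPKM in M3 and 34.1 RPKM in M4, with a difference of 0.81 that did not pass (adjusted p = 0.364). The calls of all 3 ended without M2, at 2.15 for Pde3b, 1.40 for Pde4d and 0.73 for Pde8a. Those of Pde3b and Pde8a also ended without M3 (2.69 and 0.68), D4 (2.39 and 0.67) or D5 (2.17 and 0.66), and that of Pde8a without D6 (0.71). Gng4, a G protein γ subunit, rose from 0.106 to 1.25 RPKM in DMSO to 4.74 RPKM in M2 and 5.12 RPKM in M3, with 0.304 RPKM in M4 (2.33, limma adjusted p = 0.0112, lost without M2 at 2.38 or M3 at 2.28). Arrdc3, an α-arrestin known for its part in β2 receptor trafficking, rose by 2.19 (limma adjusted p = 0.0294), a call that held in 1 of the 6 fits that each left out a library, the one without D3.

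Of 13 tested AP-1 and ATF factors, 2 rose and 1 fell without M4, beside 0.88% and 0.459% of all genes. Of the 2, Fosb entered the test only through MPH libraries. Fosl2 stood at 5.40 to 10.1 RPKM in DMSO, 29.6 RPKM in M2, 33.4 RPKM in M3 and 7.10 RPKM in M4, a rise of 1.99 (SE 0.37, limma adjusted p = 0.00862). Atf3, an ATF family factor known to restrain LPS-induced cytokine genes, had the largest fall among the genes that passed. Its level was 93.6, 83.2, 175 and 130 RPKM in D3 to D6, 29.6 RPKM in M2, 25.3 RPKM in M3 and 160 RPKM in M4. M2 and M3 were below every DMSO library by a wide margin and M4 was within their range. The fall was -2.06 (SE 0.36, limma adjusted p = 0.00614) without M4 and -1.22 (limma adjusted p = 1.0) with it. The calls of Fosl2 and Atf3 ended without M2 (2.08 and -2.17) and without M3 (1.91 and -1.94). Junb ran from 30.8 to 444 RPKM within DMSO and Jund from 2.05 to 27.9 RPKM, wide spreads beside which their differences of -1.62 and -1.12 did not pass.

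Among 16 tested cytokines, 4 rose and 0 fell without the library labelled M4, beside 0.88% and 0.459% of all genes. In both pairs 8 were at 1 or more and 1 at -1 or less, beside 1.02% and 0.401%. Their median difference was 0.48, beside 0.01 for all genes. Il10, which encodes an anti-inflammatory cytokine, rose the most. Its level was 0.865, 2.29, 0.401 and 3.56 RPKM in D3 to D6, 29.2 RPKM in M2, 50.4 RPKM in M3 and 0.295 RPKM in M4. M2 and M3 were above and M4 below all DMSO libraries. The rise was 4.33 (SE 0.47, limma adjusted p = 0.000102) without M4 and 2.46 (limma adjusted p = 1.0) with it.

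Il6, a pyrogenic cytokine, stood at 21.7, 3.04, 2.90 and 8.92 RPKM in D3 to D6, 77.1 RPKM in M2, 38.6 RPKM in M3 and 2.31 RPKM in M4. It rose by 2.96 (SE 0.55, limma adjusted p = 0.00862), a call that ended without M2 (2.46, adjusted p = 0.262). Osm, the IL-6 family cytokine oncostatin M, stood at 7.80, 12, 8.35 and 13.7 RPKM in DMSO, 75.2 RPKM in M2, 63.0 RPKM in M3 and 8.26 RPKM in M4. M4 again sat among the DMSO libraries. Osm rose by 2.70 (SE 0.50, limma adjusted p = 0.00869), and its call ended without M2 (2.57) or M3 (2.82).

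The genes of the IL-1 system are of interest because Il1b is named in the title of the study. Il1b stood at 321, 115, 183 and 391 RPKM in D3 to D6, 934 RPKM in M2, 633 RPKM in M3 and 133 RPKM in M4. M2 and M3 were above every DMSO library, and M4 was above D4 only. The paired differences were 1.54 and 2.45, beside -0.45 for M4 minus D5. Over all 7 libraries the difference was 0.92, with a two-sided exact permutation p of 0.343 over 35 arrangements, where 0.0286 is the smallest possible. Without M4 it was 1.76, with p = 0.133 in the same exact test over 15 arrangements, where 0.0667 is the smallest possible and no result can pass. The test across all genes gave an adjusted p of 0.341 (limma, without M4).

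Il1a, the second IL-1 ligand, stood at 124, 22.5, 35.3 and 54.3 RPKM in D3 to D6, 283 RPKM in M2, 154 RPKM in M3 and 23.0 RPKM in M4. It rose by 2.10 (SE 0.47, limma adjusted p = 0.0312) without M4. The call held when D3 was left out and in no other such fit, with values from 1.67 without M2 to 2.54 without M3. Il1r2, the decoy receptor that binds IL-1 without signalling, stood at 0.325 to 0.45 RPKM in DMSO, 4.6 RPKM in M2, 6.99 RPKM in M3 and 0.238 RPKM in M4, and rose by 2.79 (SE 0.36, limma adjusted p = 0.000619). It entered the test only through MPH libraries, so it is no support for the family count below. Il1rn, the receptor antagonist, had 10.8 to 17.9 RPKM in DMSO, 30.7 RPKM in M2, 45.6 RPKM in M3 and 9.28 RPKM in M4, and did not pass (1.41, adjusted p = 0.14). Il1r1, the signalling receptor, was below the filter. In all, 2 of 8 tested members of the IL-1 family rose and 0 fell, beside 0.88% and 0.459% of all genes. Of 12 inflammasome genes, whose products mature IL-1β, 0 rose and 0 fell, which is near those shares, and the median was 0.18. Nlrp3 was at 96.8 to 199 RPKM in DMSO and 119, 142 and 102 RPKM in M2, M3 and M4. Il1bos, antisense to Il1b, was also past the threshold (0.93, limma adjusted p = 0.0419). Its reads cannot be told apart from those of Il1b, because the use of strand in counting is not given, and it was chosen after its values were seen.

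Other cytokine genes lay lower in M2 and M3 or showed no separation, and none of those named in this paragraph passed the test. Il12b, the shared subunit of IL-12 and IL-23, had 3.91, 3.25, 4.96 and 45.7 RPKM in D3 to D6, 0.592 RPKM in M2, 0.765 RPKM in M3 and 4.30 RPKM in M4. Its paired differences were -2.01 and -1.57, and the wide DMSO range went with an adjusted p of 0.404 (limma, without M4). The chemokine gene Ccl3 had 326 to 664 RPKM in DMSO, 141 RPKM in M2, 133 RPKM in M3 and 431 RPKM in M4 (paired -1.31 and -1.29). Tnf, the most abundant of these, had 1950, 1300, 2210 and 2470 RPKM in D3 to D6, 1420 RPKM in M2, 911 RPKM in M3 and 1950 RPKM in M4, with paired differences of -0.46 and -0.51 and groups that overlap. Csf1 had 19.5 to 35.8 RPKM in DMSO, 13.5 RPKM in M2, 9.74 RPKM in M3 and 26.8 RPKM in M4. Il23a had paired differences of 1.85 and 2.73, but D4 at 0.227 RPKM stood far below the other DMSO libraries, and the groups overlap. Of 10 CC and 6 CXC chemokine genes tested, 0 rose and 0 fell, which is near the 0.88% and 0.459% of all genes.

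**Figure D3:**
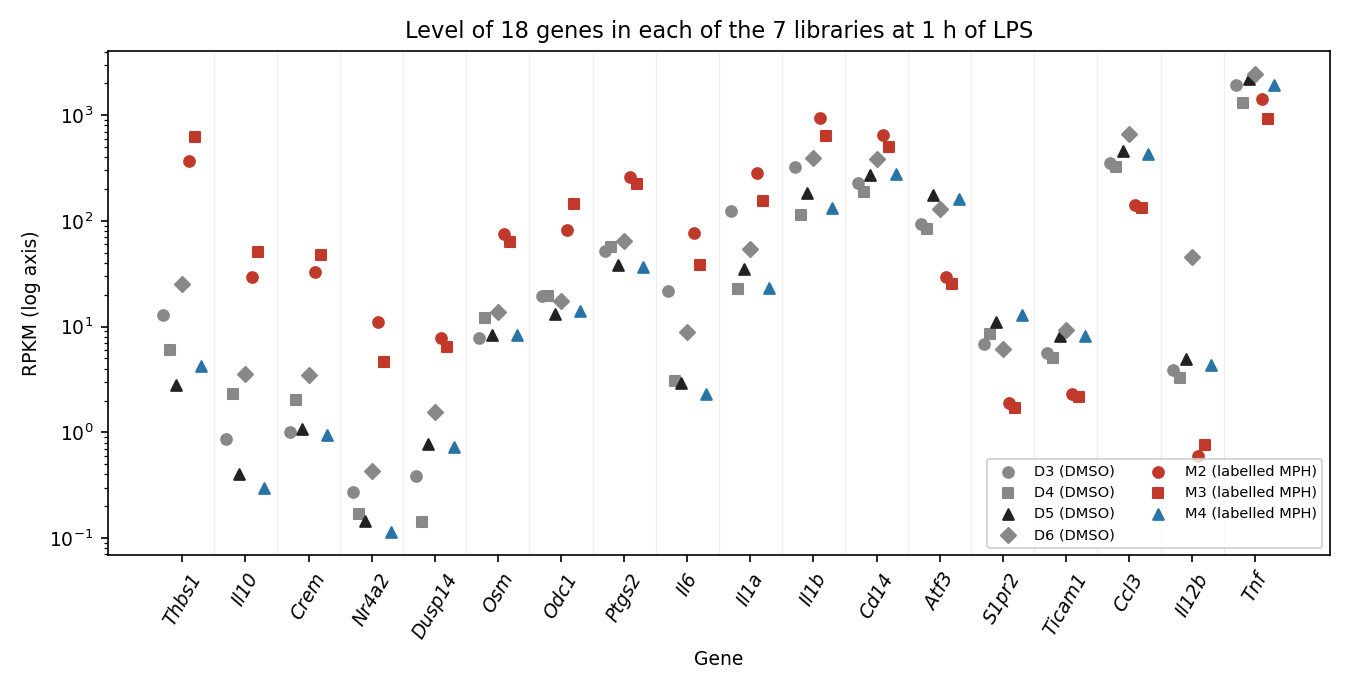
RPKM (log axis) of 18 genes in each of the 7 libraries at 1 h of LPS, 1 point per library, grey and black for DMSO, red for M2 and M3 and blue for the library labelled M4. M2 and M3 lie above the DMSO points from Thbs1 to Cd14 and below them from Atf3 to Il12b, while M4 differs from D5 by -0.61 (Il1a) to 0.53 (Thbs1) on the log2(RPKM + 0.5) scale.

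Thbs1 led a list of genes of regulatory and repair macrophages. Of 11 tested members, 5 rose and 0 fell without M4, beside 0.88% and 0.459% of all genes. In both pairs 7 were at 1 or more, beside 1.02%, and the median was 2.01, beside 0.01 for all genes. It was 0.68 with all 7 libraries. This list shares Thbs1 and Areg with the CREB target list and Il10 with the cytokine list. Thbs1, which encodes the matrix glycoprotein thrombospondin-1, rose the most of all genes. Its level was 12.8, 6.05, 2.78 and 25.5 RPKM in D3 to D6, 372 RPKM in M2, 626 RPKM in M3 and 4.24 RPKM in M4. M4 was within the DMSO range. The rise was 5.70 (SE 0.68, limma adjusted p = 0.000309) without M4 and 3.48 (limma adjusted p = 1.0) with it.

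Odc1, the rate-limiting enzyme of polyamine synthesis, stood at 19.6, 19.4, 13.3 and 17.4 RPKM in D3 to D6, 82.4 RPKM in M2, 143 RPKM in M3 and 14.1 RPKM in M4. The DMSO libraries were tight and M4 was among them. It rose by 2.62 (SE 0.35, limma adjusted p = 0.000808). Vegfa, the angiogenic growth factor, stood at 2.77 to 8.12 RPKM in DMSO, 48.7 RPKM in M2, 31.1 RPKM in M3 and 8.13 RPKM in M4, and rose by 2.76 (limma adjusted p = 0.00614). Nfil3, a bZIP repressor, stood at 2.07 to 3.39 RPKM in DMSO, 15.7 RPKM in M2 and 11.8 RPKM in M3, and rose by 2.18 (limma adjusted p = 0.00182). The library labelled M4 had 0.114 RPKM of Nfil3, whereas the same culture had 10.8 RPKM at 0 h and 8.97 RPKM at 2 h. The calls of Vegfa (2.44) and Nfil3 (1.98) ended without M2. Arg1, Retnla and Hbegf were below the filter.

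Ptgs2 encodes cyclooxygenase-2, which makes prostaglandins that themselves raise cyclic AMP. It stood at 51.8, 57.0, 38.1 and 64.1 RPKM in D3 to D6, 263 RPKM in M2, 222 RPKM in M3 and 36.9 RPKM in M4. M2 and M3 were well separated from a tight DMSO group. It rose by 2.21 (SE 0.37, limma adjusted p = 0.00428). It was the only 1 of 12 tested genes of eicosanoid synthesis that rose, and 0 fell, beside 0.88% and 0.459% of all genes. Its call ended without M2 (2.09). Its antisense neighbour Ptgs2os2 was past the threshold too (1.70, limma adjusted p = 0.0343), and without strand the reads of the pair cannot be told apart. It too was chosen after its values were seen.

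Of 14 tested lipid droplet genes, 2 rose and 0 fell without M4, beside 0.88% and 0.459% of all genes, and their median was 0.12. Dgat1, which completes triglyceride synthesis, stood at 4.28, 3.57, 4.75 and 4.81 RPKM in D3 to D6, 18.5 RPKM in M2, 17.9 RPKM in M3 and 5.07 RPKM in M4. It rose by 1.95 (SE 0.20, limma adjusted p = 0.000102), and its DMSO libraries differed little. Hilpda, a lipid droplet protein that inhibits lipolysis, stood at 9.72 to 16 RPKM in DMSO, 114 RPKM in M2, 141 RPKM in M3 and 9.46 RPKM in M4. It rose by 3.35 (SE 0.56, limma adjusted p = 0.00481), a call that ended without M2 (3.50) or M3 (3.19). Plin2, the main droplet coat protein, did not pass (-0.47).

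Single genes for receptors at the cell surface rose. Trem1, which amplifies Toll-like receptor signals, stood at 3.08 to 9.54 RPKM in DMSO, 30.5 RPKM in M2, 63.2 RPKM in M3 and 2.84 RPKM in M4, a rise of 2.90 (SE 0.51, limma adjusted p = 0.00614) that ended without M3 (2.38). Cd14, the LPS co-receptor, stood at 227, 189, 269 and 382 RPKM in D3 to D6, 644 RPKM in M2, 503 RPKM in M3 and 280 RPKM in M4. It rose by 1.14 (limma adjusted p = 0.0285), with values from 0.96 without M2 to 1.32 without M3, and the call held only without D6. Thbd, the anticoagulant receptor thrombomodulin, stood at 0.55 to 0.693 RPKM in DMSO, 7.50 RPKM in M2, 2.55 RPKM in M3 and 0.654 RPKM in M4, a rise of 2.16 (limma adjusted p = 0.00167) lost without M2 (1.46). Tlr5, the flagellin receptor, stood at 0.144 to 0.354 RPKM in DMSO, 1.17 RPKM in M2, 2.20 RPKM in M3 and 0.156 RPKM in M4, a rise of 1.56 (limma adjusted p = 0.0227) lost without M2 (1.90), M3 (1.21) or D5 (1.5). Of 13 tested surface receptors, 1 rose and 0 fell, beside 0.88% and 0.459% of all genes. Of 24 genes of the Toll-like receptor pathway, 2 rose and 1 fell, beside 0.88% and 0.459% of all genes. Of the 2, Tlr5 entered the test only through MPH libraries. Tlr4 was at 3.42 to 8.19 RPKM in DMSO and 4.38, 8.57 and 3.95 RPKM in M2, M3 and M4, and Myd88 differed by -0.15.

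Further genes with large rises belonged to none of these groups. Cytip, a lymphoid adaptor that binds cytohesins, stood at 4.26, 1.45, 1.43 and 1.65 RPKM in D3 to D6, 82.8 RPKM in M2, 29.4 RPKM in M3 and 1.85 RPKM in M4. It rose by 4.32 (SE 0.70, limma adjusted p = 0.00374) and lost its call without M2 (3.58). Mxi1, a MAX partner that opposes MYC, stood at 3.93 to 7.81 RPKM in DMSO, 34.2 RPKM in M2, 30.6 RPKM in M3 and 5.21 RPKM in M4, and rose by 2.51 (SE 0.34, limma adjusted p = 0.00107). Dusp14, a phosphatase of MAP kinases, stood at 0.143 to 1.55 RPKM in DMSO, 7.89 RPKM in M2, 6.46 RPKM in M3 and 0.724 RPKM in M4, and rose by 2.79 (limma adjusted p = 0.00195), a call lost without M2 (2.66). It was the only 1 of 13 tested DUSP, Sprouty and Spred genes that rose, and 0 fell, beside 0.88% and 0.459% of all genes. Ctla2a (2.66), B3gnt5 (2.57), Cd207 (2.47), Sdc1 (2.44) and Flrt3 (2.32) completed the 25 largest rises, and each lost its call in the fit without M2. Cd207 and Sdc1 held theirs in only 1 of the 6 fits that each left out a library, Flrt3 in 4, and Ctla2a and B3gnt5 in 5.

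The smallest p-values with all 7 libraries come from a ranking that includes M4. It therefore favours genes in which M4 lies on the side of M2 and M3. Uck2, a uridine-cytidine kinase, stood at 11.2, 6.71, 11.1 and 10.0 RPKM in D3 to D6, 41.6 RPKM in M2, 27.2 RPKM in M3 and 15.0 RPKM in M4, a difference of 1.38 with all 7 and 1.76 without M4. Auh, an RNA-binding hydratase of mitochondria, stood at 4.37 to 5.80 RPKM in DMSO, 10.0 RPKM in M2, 10.1 RPKM in M3 and 6.68 RPKM in M4 (0.74 and 0.93). In both, all MPH libraries were above all DMSO libraries. Grasp (0.75), Zcchc14 (0.54) and Dgat1 (1.37) followed, and all 5 had an adjusted p of 1.0 (limma, all 7 libraries). M4 minus D5 was 0.42 in Uck2, 0.50 in Auh, 0.29 in Grasp, 0.14 in Zcchc14 and 0.09 in Dgat1. In Dgat1 the other pairs differed by 1.99 and 2.17.

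The falls were smaller than the rises, with a median of -1.09 over the 47 genes against 1.56 over the 90. S1pr2, a sphingosine 1-phosphate receptor that restrains cell migration, stood at 6.83, 8.52, 11.0 and 6.21 RPKM in D3 to D6, 1.91 RPKM in M2, 1.70 RPKM in M3 and 12.8 RPKM in M4. M4 was above every DMSO library. It fell by 1.87 on the log2 scale (SE 0.25, limma adjusted p = 0.00084). Ticam1 encodes TRIF, the adaptor of the interferon branch of Toll-like receptor signalling. It stood at 5.67, 5.06, 8.13 and 9.20 RPKM in D3 to D6, 2.33 RPKM in M2, 2.17 RPKM in M3 and 8.07 RPKM in M4, and its difference was -1.41 (limma adjusted p = 0.0188). That call ended without M2 (-1.45), M3 (-1.37), D5 (-1.33) or D6 (-1.28). Of 26 interferon-stimulated genes 0 passed, which is near the 1.34% of all genes, and their median was 0.27 without M4 and -0.15 with it.

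The other genes among the 25 largest falls were not chosen by a shared role and are given in turn. Prag1 (-1.98), the Ras exchange factor Rasgrp3 (-1.89), the Cdc42 exchange factor Fgd3 (-1.17), Arhgef7 (-1.16), Rap2a (-1.15) and the GTPase-activating gene Arhgap17 (-1.09) fell. Fgd3 stood at 14.3, 14.2, 13.8 and 10.9 RPKM in D3 to D6, 5.20 RPKM in M2, 6.04 RPKM in M3 and 15.6 RPKM in M4. The kinase gene Tec (-1.39), the ubiquitin ligase Cblb (-1.28), the protein kinase C gene Prkch (-1.27) and the adaptor Nck2 (-1.15) fell. Cblb stood at 9.04, 10.5, 11.0 and 11.0 RPKM in D3 to D6, 3.30 RPKM in M2, 4.73 RPKM in M3 and 10.5 RPKM in M4. Slc15a4 (-1.33) and Plekhm1 (-1.61), both of lysosomes, the RNA-decay gene Zc3h12c (-1.18) and the lipid-sensing receptor gene Pparg (-1.14) fell as well. The other genes named by the same rule were Nav2 (-1.42), Lrp12 (-1.30), Tns3 (-1.29), Gm16104 (-1.15), Frmd6 (-1.13), Kif21b (-1.11) and Pprc1 (-1.09). Apart from S1pr2, each of the 25 largest falls lost its call without M2, and their largest adjusted p among the main values was 0.0427 (limma, Arhgef7). Rasgrp3, Lrp12, Gm16104 and Pparg held theirs in only 1 of the 6 fits that each left out a library, and the others in 2 to 5.

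**Figure D4:**
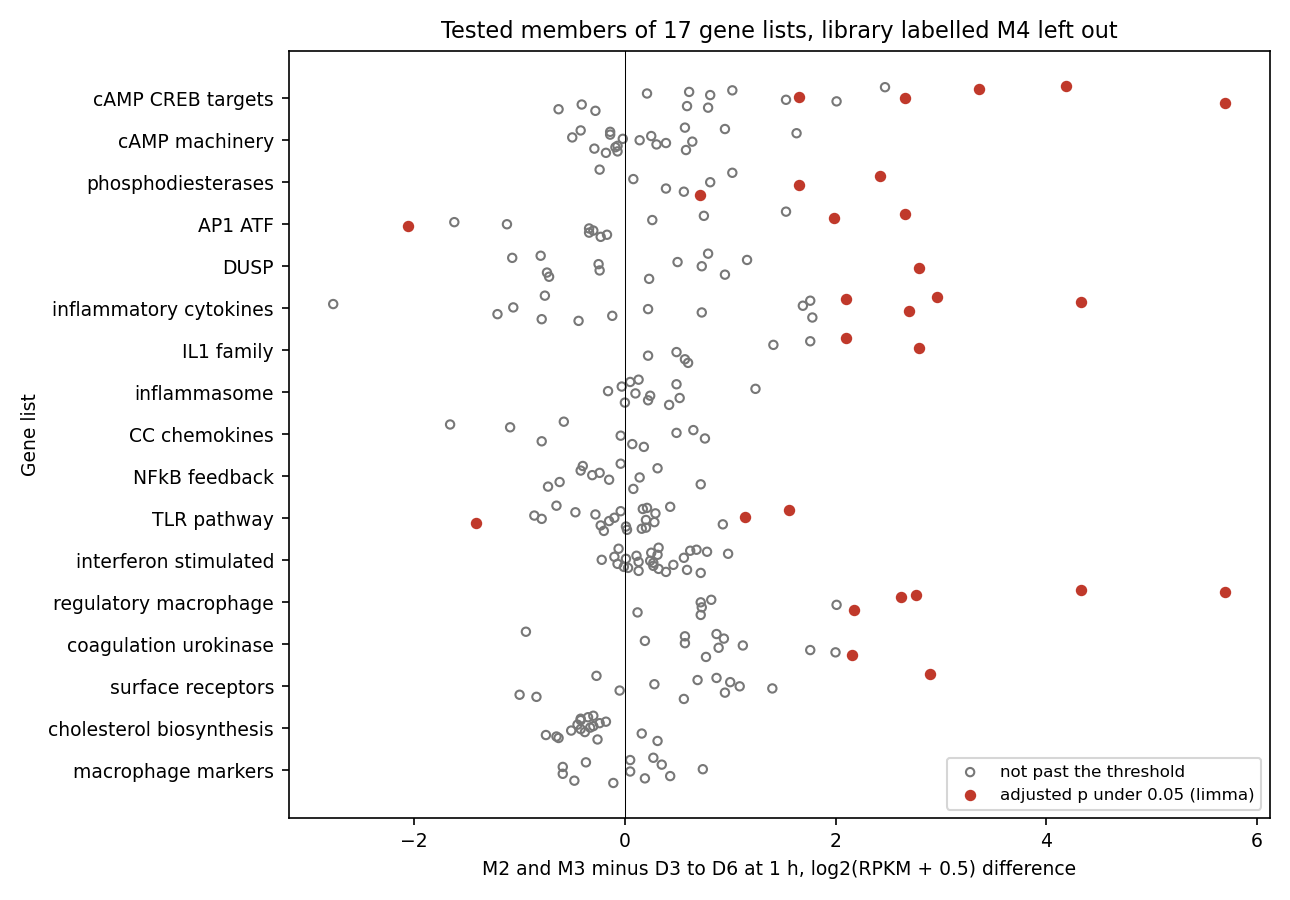
Difference of M2 and M3 from D3 to D6 at 1 h, on the log2(RPKM + 0.5) scale, for each tested member of 17 gene lists, with the library labelled M4 left out. Filled points passed (limma adjusted p under 0.05), as did 1.34% of all tested genes. They number 5 of 17 in the CREB targets and 5 of 11 in the regulatory list. Among the targets, Nr4a2, Fosb and Pde4d entered the test only through MPH libraries. There are 0 in the cyclic AMP machinery, the inflammasome, the CC chemokines, the NF-κB feedback genes and the interferon-stimulated genes.

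Most of the genes that rose at 1 h were also called higher before LPS. In the same fit, 116 genes (1.13%) were higher and 49 (0.479%) lower with MPH at 0 h, and 122 (1.19%) and 93 (0.909%) at 2 h, with 3 MPH and 4 DMSO libraries at each time. Of the 90 genes that rose at 1 h without M4, 62 (68.9%) were also called higher at 0 h, or 53.4% of the calls there, and 56 (62.2%) at 2 h, or 45.9% of the calls there. Of the 47 that fell, 17 (36.2%) were also called lower at 0 h, or 34.7% of the calls there, and 25 (53.2%) at 2 h, or 26.9% of the calls there. These libraries are separate from those at 1 h, but they come from the same cultures and share the fit. Thbs1 was at 2.42 to 10.1 RPKM in DMSO and 292, 380 and 189 RPKM in M2, M3 and M4 at 0 h, a difference of 5.69 (limma adjusted p = 3.41e-05). Crem was at 1.14 to 2.08 RPKM in DMSO and 22.0, 53.7 and 21.2 RPKM in the MPH libraries at 0 h. Nr4a2 differed by 4.62 at 0 h, 3.36 at 1 h without M4 and 1.49 at 2 h.

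The difference at 1 h was set against that at 0 h in a test of its own. The fit that treats all libraries as independent gave few calls, and the fit with culture as a random effect, which uses that libraries at different times share a culture, gave more. In the first, with all libraries, 0 of 10239 genes (0%) passed, and 83 had an unadjusted p under 0.05. Without the 1 h library labelled M4, 1 gene (0.00977%) passed and 141 had an unadjusted p under 0.05. With culture as a random effect 27 genes (0.264%) passed with all libraries, 7 with a higher and 20 with a lower effect at 1 h. Without M4 these were 38 (0.371%), 16 higher and 22 lower. The gene called in the first fit was Il10. Before LPS it was at 0.0529 to 0.631 RPKM in DMSO and 0.0213, 0.334 and 0.0129 RPKM in the MPH libraries, a difference of -0.15. The effect at 1 h exceeded that at 0 h by 4.48 (limma adjusted p = 0.0162), a call that ended without M2 or M3 and with a pseudocount of 0.1. With culture as a random effect it was 4.49 (adjusted p = 8.08e-05, limma) without M4 and 2.61 (adjusted p = 0.855) with it. At 2 h of LPS Il10 was at 2.07 to 3.48 RPKM in DMSO and 22.4, 29.7 and 34.7 RPKM in M2, M3 and M4 (3.21, limma adjusted p = 0.000369).

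Il6 and Il1a had the same order of values, and whether they passed depended on the fit. At 0 h Il6 was at 0.0159 to 0.0496 RPKM in DMSO and 0.129, 0.173 and 0.0465 RPKM in M2, M3 and M4. Il1a was at 0.0669 to 0.463 RPKM in DMSO and 0.0989, 0.189 and 0.0595 RPKM in M2, M3 and M4. At such levels the scale understates a change, which for Il6 widens the excess at 1 h. The differences of Il6 and Il1a with MPH at 0 h were 0.22 and -0.11. The effect at 1 h exceeded these by 2.74 (adjusted p = 0.941) and 2.22 (adjusted p = 0.999, limma, without M4). With culture as a random effect these adjusted p were 0.0398 and 0.0329 without M4, and both 0.999 with it. Other genes had a larger difference at 0 h than at 1 h. The effect on Pde4b was lower at 1 h by 2.12 (adjusted p = 0.243, limma, without M4), that on the antiproliferative gene Btg2 by 2.09 (adjusted p = 0.178), that on the salt-inducible kinase Sik1 by 1.68 (adjusted p = 0.422) and that on the kinase Nuak2 by 1.58 (adjusted p = 0.178). Cd14 differed by 2.40 at 0 h and by 1.14 at 1 h (adjusted p of the change 0.941). These 5 genes passed with culture as a random effect, with and without M4. Without M4 the changes were -2.32 for Pde4b (limma adjusted p = 0.000439), -2.19 for Btg2 (0.00729), -1.64 for Sik1 (0.00228), -1.63 for Nuak2 (0.00255) and -1.19 for Cd14 (0.029).

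At the genes chosen on the other pairs, M4 minus D5 resembled M2 minus D3 and M3 minus D4 at 0 h and 2 h. Over the 104 genes at 1 or more in both pairs at 1 h, the median of M4 minus D5 was 1.36 at 0 h, 0.0 at 1 h and 1.24 at 2 h. For M2 minus D3 these medians were 1.23, 1.52 and 1.33, and for M3 minus D4 they were 1.66, 1.77 and 1.48. The values at 1 h in the latter pairs chose the genes and are no support, whereas those at 0 h and 2 h come from other libraries. In M4 minus D5, 67 of the 104 (64.4%) reached 1 at 0 h and 63 (60.6%) at 2 h, beside 1.37% and 1.3% of all tested genes. Over the 41 genes at -1 or less, the medians of M4 minus D5 were -0.9, 0.09 and -0.98. The library labelled M4 at 1 h did show the response to LPS itself. Its Il1b went from 1.06 RPKM at 0 h to 133 RPKM at 1 h, and its Tnf from 4.98 to 1950 RPKM.

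**Figure D5:**
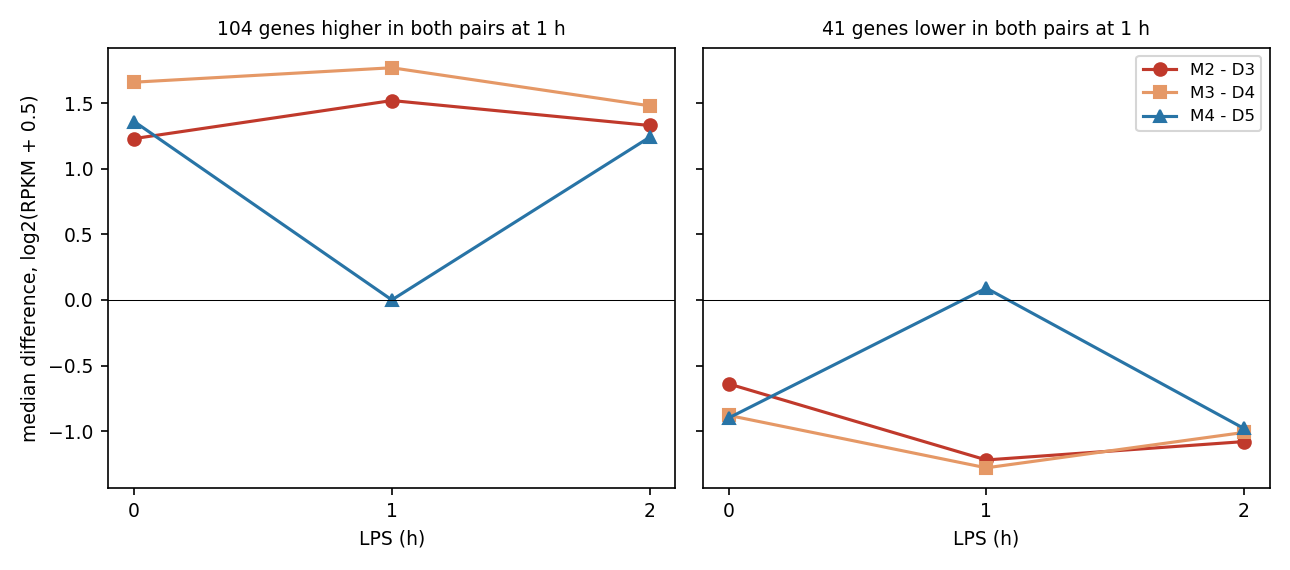
Median difference, on the log2(RPKM + 0.5) scale, of M2 minus D3, M3 minus D4 and M4 minus D5 at 0, 1 and 2 h of LPS, over the 104 genes (left) and 41 genes (right) chosen on the first 2 pairs at 1 h. The M4 minus D5 line is at 1.36, 0.0 and 1.24 on the left and at -0.9, 0.09 and -0.98 on the right.

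Few genes separated the library labelled M4 from D5 at 1 h. Cxcl14 was at 41.1 RPKM in M4 against 2.26 RPKM in D5, and at most 4.52 RPKM in the other 5 libraries. Lyz1, whose reads can be split with the near-identical Lyz2, was at 53.2 against 7.29 RPKM, and Cxcl1, a neutrophil chemoattractant, at 580 against 250 RPKM. Nfil3 (0.114 against 2.26 RPKM) and Apoe (93.6 against 259 RPKM) were lower in M4. All 18 tested genes of cholesterol synthesis were higher in M4 than in D5, by 0.21 to 0.77 with a median of 0.50. In the pairs M2 with D3 and M3 with D4 the median of the same genes was -0.44 and -0.44, and 16 and 17 of the 18 were below 0. None of the 18 passed the test without M4. These genes were chosen after their values were seen.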

How the data were processed

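The 7 libraries at 1 h, with the 0 h and 2 h libraries of the same cultures, were analysed from the deposited table of RPKM values, computed by the authors (FastQC, cutadapt, HISAT2, SAMtools and build mm9 are named, per the submitters' processing notes). No source used here names the counting program, its annotation or its use of strand. The table has 44401 transcript lines for 24761 gene names, 8852 of them with more than 1 line, and the line with the highest mean was used for each name. Low values fall on steps of 1 read, which over 5681 transcripts gave approximate depths of 5400000 to 71600000 reads for the 7 libraries. Precision is limited by this depth and by the number of libraries.

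Genes reaching 1 RPKM in 3 or more of the fitted libraries entered the test, on log2(RPKM + 0.5) with limma 3.58.1 in R 4.3.3 (moderated test with a trend, Benjamini-Hochberg adjustment, threshold 0.05). A gene could meet this filter in MPH libraries alone. A mean was fitted for each treatment and time over 21 libraries, or 20 without the 1 h library labelled M4. Paired differences were described without a test, and Il1b was also tested by exact permutation. The fit was tested on simulated data. The members, pairs and gene lists were chosen with earlier results of these data known, so counts over lists are descriptions. The text names Il1b, the 25 largest rises and 25 largest falls that passed without M4 and whose groups do not overlap, list members that passed (up to 6 per list) and the 5 smallest p in each other comparison. Other list members, and genes of the paired description, are named to describe their list. Some genes that the rule or a list names are not reported here. The lists held 539 genes matched by name, and 1 further symbol (Hmgcs1) was not analysed here.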

Additional observations from a re-analysis of the deposited data

Results flagged for a closer look

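Outlying libraries were looked for in the 4 DMSO libraries at 1 h for each of the 67 named genes, and chance flags about 1 in 20 such groups. Cytip was far higher in D3 (4.26 RPKM) than in the other DMSO libraries, with a gap of 0.878 of the whole range. Fgd3 was lower in D6 (10.9 RPKM) than in the other DMSO libraries (13.8 to 14.3 RPKM), with a gap of 0.868 of a narrow range. These were 2 of 67 genes, which is not above the share that chance flags.

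The effect of MPH on Il10 differed between 1 h of LPS and 0 h by 4.48 on the log2(RPKM + 0.5) scale in a test of the difference itself (limma adjusted p = 0.0162, without the 1 h library labelled M4). All MPH libraries at 2 h, M4 included, were above all DMSO libraries at that time.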

How the results depend on the processing

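With all 7 libraries, the count of genes past the threshold was 0 and stayed at 0 under both other pseudocounts, both other filters, another scaling, the mean of all lines of a name, culture as a random effect, the 1 h libraries alone and without D4 and D6. It was 4 with all 7 DMSO cultures as controls and 0 to 137 with 1 library left out. Without the library labelled M4 the count of 137 became 13 in the 1 h libraries alone, 351 with all 7 DMSO cultures, 62 without D4 and D6, and 24 to 153 with 1 further library left out. It ranged from 94 to 139 under the other 7 settings without a block. In the 1 h libraries alone some named genes, such as Nr4a2, Il1r2 and Fosb, fell below the filter. These are not in the count of lost calls that follows. With the 1 h libraries alone 43 of the named genes lost their call, Thbs1 and Il10 among them, and 4 named genes (Crem, Dgat1, Mxi1 and Odc1) passed under all 17 alternatives. The count of changes between 0 h and 1 h was 27 with culture as a random effect, 1 with another scaling, 2 with pseudocount 1 and 0 to 1 with 1 library left out. Without the 1 h library labelled M4 it was 38 with culture as a random effect, 0 with pseudocount 0.1 and 0 to 1 with 1 further library left out. The 41 genes lower in both pairs became 80 with pseudocount 0.1 and 26 with pseudocount 1. The direction for Btg2, -0.07 at 1 h, reversed to 0.06 without D5 and was -0.14 without D6. Except for fewer libraries, genes or changed controls, the cause of these moves was not tested.

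The labels share the numbers 3 and 4 between DMSO and MPH cultures, but same-numbered libraries were not the most alike. Each library's deviations from the gene means over the 7 libraries of its time were correlated over genes. At 1 h this r was -0.35 for D3 with M3 and -0.33 for D4 with M4, where M4 lay next to D5. Taking out the mean shifts such r below 0, and D3 with D4, both DMSO, had -0.32. At 0 h the same-numbered pairs had -0.39 and -0.73, beside 0.57 for D4 with M3. The numbers were therefore not taken to pair the libraries. With the replicate block the counts were 161 with all 7 libraries, 388 without M4, and 4 for the change between 0 h and 1 h.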
